A study of Rattus norvegicus with 9 samples.

Results

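Mitochondrial ribosomal protein genes code for the proteins of the ribosome inside mitochondria. They were taken here as the genes whose symbol in the array annotation starts with Mrpl or Mrps followed by a digit. The array held 73 such genes out of 14217 named genes, on 97 probe sets, and of several probe sets for a gene the brightest, by its log2 values averaged over all 9 arrays, stood for the gene. The rule reads symbols and brightness, not differences between groups. Of the 73 genes, 48 code for proteins of the large subunit and 25 for proteins of the small subunit, and 18 genes had more than 1 probe set. All 73 passed the filter on low values, in which the mean over all 9 arrays decided and not the level in any group.

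The mitochondrial ribosome is built from RNAs made inside the organelle and from proteins that are coded in the nucleus, made in the cytosol and imported. It translates only the few messages of mitochondrial DNA, whose products are core subunits of the respiratory chain and of ATP synthase. In pancreatic beta cells, ATP made by mitochondria closes potassium channels and so couples glucose metabolism to insulin release. Part of the proteins have counterparts in bacterial ribosomes, and the rest are specific to mitochondria.

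RNA of islets from male Zucker Diabetic Fatty (ZDF, fa/fa) rats was hybridised to Affymetrix rat genome arrays. The strain lacks a working leptin receptor and becomes obese and diabetic. Treated rats received rosiglitazone, a drug that activates the nuclear receptor PPAR gamma, mixed as powdered tablets into the diet at 3 mg per kg from 5 weeks of age, and were sampled at 9 weeks. Withdrawal rats had the same treatment until week 9 and were sampled 2 weeks later, at 11 weeks. Untreated rats were sampled at 13 weeks. All rats were fed the Purina 5008 diet, each group had 3 arrays described as biological replicates, and the study had 24 rats in all. Age and treatment differed together between the groups and cannot be told apart. Since whole islets were measured, fewer cells of a type and less RNA per cell cannot be told apart either.

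The arrays were not alike in spread, which bears on every value below. The standard deviation of the log2 values over an array was 1.84 to 2.00 on treated, 1.65 to 1.72 on withdrawal and 1.66 to 1.77 on untreated arrays, while the array medians lay between 5.74 and 5.81. Bright probe sets therefore read higher on treated arrays as a class, and the mitochondrial ribosomal protein genes were bright: 60 of the 73 lay above the median of the tested probe sets and 39 lay among their brightest 25%. Each difference is given on the values as deposited and, where it matters, after quantile normalization and after cyclic loess normalization, which remove a shift that depends on brightness. These scalings took the median difference of all 20694 tested probe sets between treated and untreated arrays to 0.02 and 0.00, against 0.16 as deposited. The 10 markers of islet endocrine cells averaged 12.2 to 12.4 on treated, 11.3 to 11.6 on withdrawal and 11.5 to 11.8 on untreated arrays, so markers of the labelled tissue were present. They did not move alike: treated minus untreated, Sst was at 1.29 and Ppy at 1.14 as deposited, but Ins1 at 0.03 and Ins2 at 0.12. Between these lay Nkx6-1 at 0.82, Slc2a2 at 0.68, Pdx1 at 0.61, Gcg at 0.42, Chga at 0.38 and Iapp at 0.24. The beta cell markers Nkx6-1, Slc2a2 and Pdx1 were thus higher as well. Ins1 and Ins2 averaged 14.2 over the 9 arrays, and whether values that high can still rise was not tested. After cyclic loess Sst was at 0.68 and Ins1 at -0.65. On that scale the acinar markers, as bright at 13.4 to 14.2, lay between -1.01 (Pnlip) and -0.27 (Amy2a3). The value of Ins1 is therefore not read as a fall of insulin. The 9 acinar markers measured averaged 13.8 to 14.0 on all arrays, and whether acinar content was alike was not tested. Treated replicate 1 stood apart from the other treated arrays: the 8 macrophage and myeloid markers averaged 8.47 on it, against 6.83 and 7.58 on the other 2, and the 7 stellate and matrix markers averaged 10.6, against 9.04 and 9.77. The 7 lymphocyte markers measured averaged 5.29 to 5.45 on treated, 5.72 to 5.97 on withdrawal and 5.64 to 5.80 on untreated arrays. The difference between the 3′ and 5′ actin control probe sets, a sign of RNA quality, was 0.71 to 0.89 on treated, 0.95 to 1.06 on withdrawal and 0.97 to 1.12 on untreated arrays. The part of these features in the differences below was not tested.

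As deposited, 37 of the 73 mitochondrial ribosomal protein genes, 22 of the large and 15 of the small subunit, were called higher in islets of treated than of untreated rats, and 9 were after quantile normalization or cyclic loess. These calls are limma's at an adjusted p under 0.05, with none lower as deposited, in a comparison in which 20.9% of all tested probe sets were called higher and 7.24% lower. The median log2 difference of the 73 genes was 0.44, against 0.16 over all tested probe sets, and 72 of the 73 differences were above 0. For 52 genes the 3 treated values all lay above the 3 untreated values, which was so for 31.2% of all tested probe sets. The member medians of single arrays were 8.26, 7.89 and 7.86 on treated arrays, against 7.57, 7.44 and 7.72 on untreated arrays. The 3 treated arrays were thus all above the untreated ones, and treated replicate 1, which held the highest value of all 9 arrays for 63 of the 73 genes, was the highest.

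**Figure D1:**
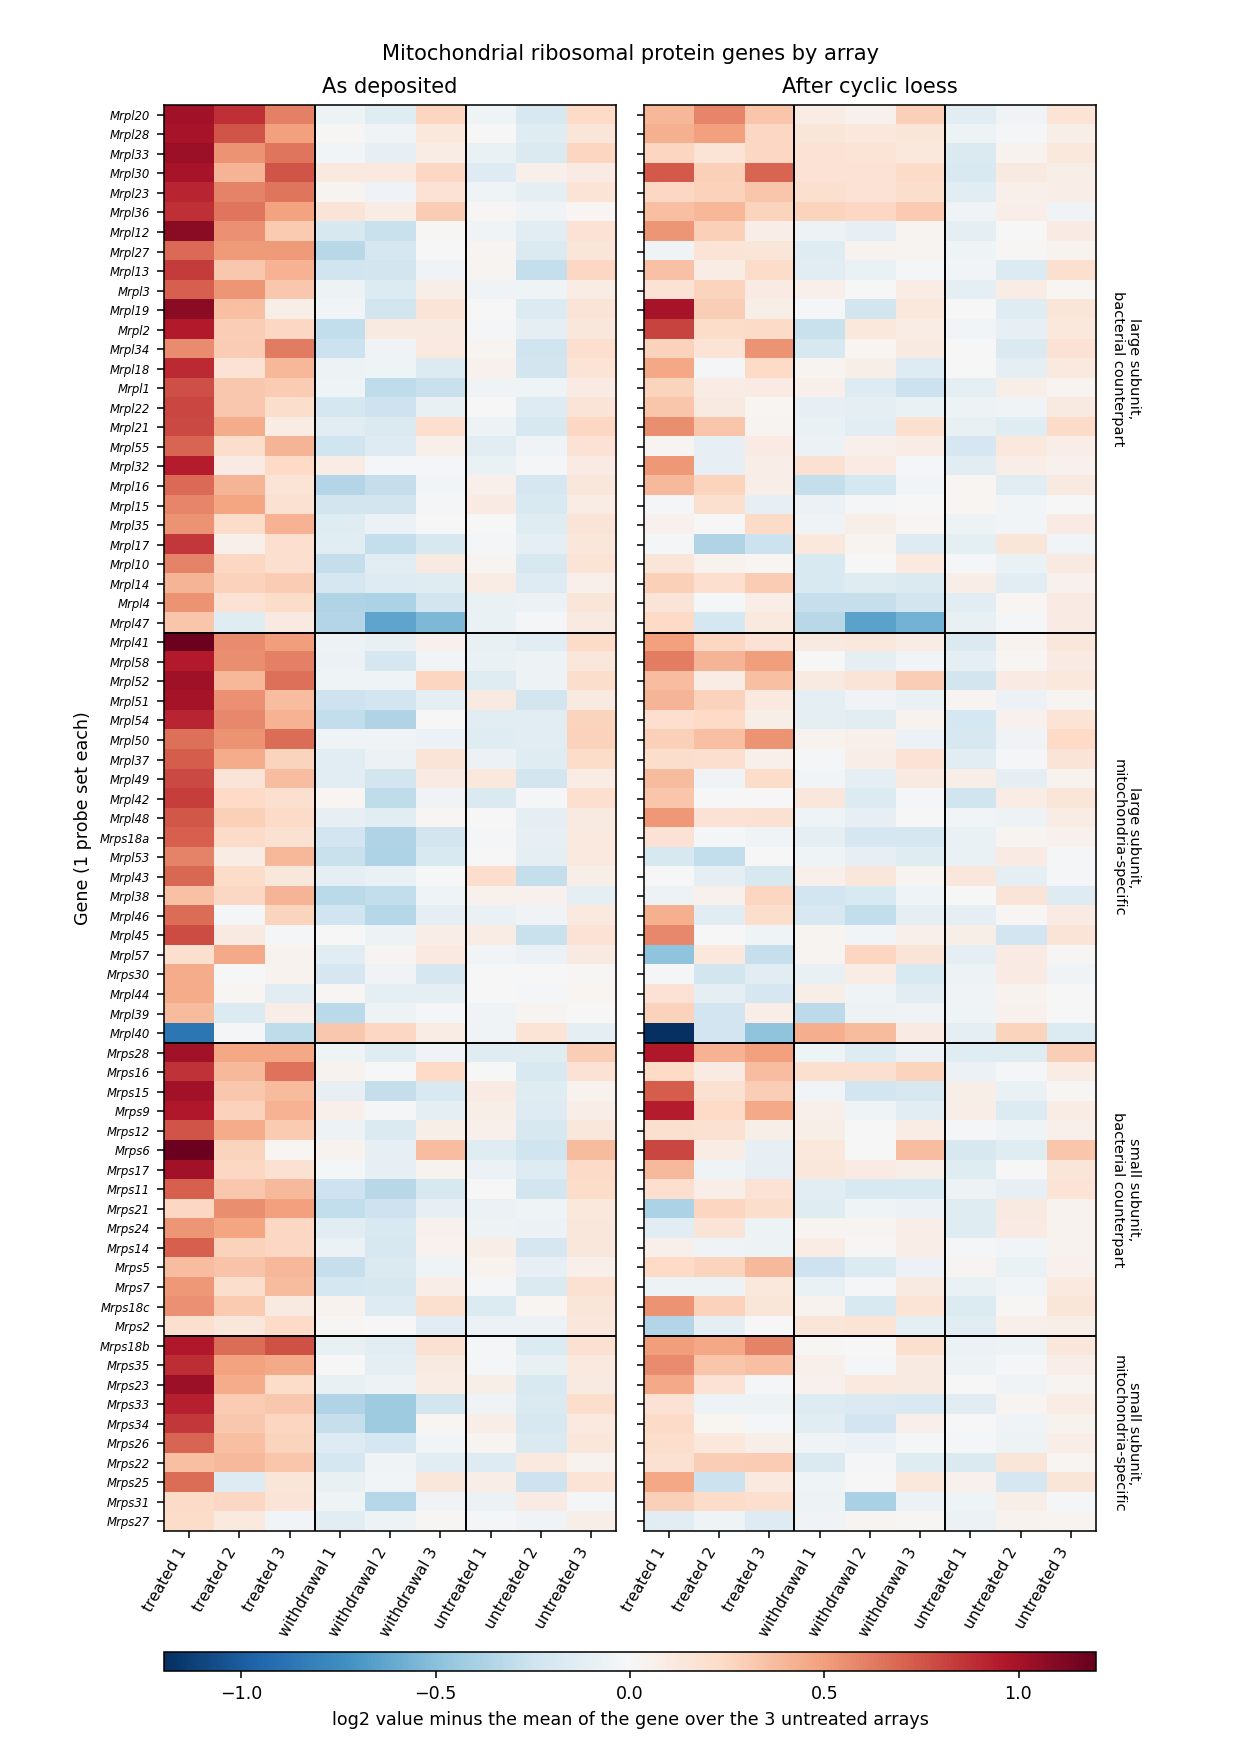
Log2 value of each of the 73 genes on each array (columns; treated, withdrawal and untreated, 3 arrays each), minus the mean of that gene over the 3 untreated arrays, as deposited (left) and after cyclic loess normalization (right). Rows are grouped by subunit and by whether bacteria have a counterpart, and ordered by the treated minus untreated difference as deposited. As deposited, the treated columns are red for nearly all genes, with treated replicate 1 the darkest and Mrpl40 the blue exception. After cyclic loess they are paler, and the treated minus untreated difference is below 0 for 11 genes.

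Once the shift by brightness was removed, far fewer genes were called. After cyclic loess normalization 9 of the 73 genes were called higher and none lower, beside 7.79% of all tested probe sets called higher and 12.3% of the members. Quantile normalization gave the same 9 genes, beside 7.75%. For lower calls on these scales the share of all tested probe sets is not given here. The direction of the whole set was still visible, with 62 of 73 differences above 0 after cyclic loess, a median of 0.17 against 0.00 over all tested probe sets, and 25 genes without overlap between groups against 16.9% of all. Relative to the median of all tested probe sets, the members' median thus stood 0.29 higher as deposited and 0.17 higher after cyclic loess. On that scale the member medians of single arrays were 7.87, 7.72 and 7.72 on treated arrays, against 7.57, 7.60 and 7.72 on untreated arrays, so 1 untreated array read within 0.01 of the lower 2 treated arrays. Without untreated replicate 1 the count after cyclic loess was 2 genes, Mrpl58 and Mrps18b, and without untreated replicate 2 it was 3 genes, those and Mrpl30. As deposited, the count was 9 without untreated replicate 2, 14 without untreated replicate 1, 23 without withdrawal replicate 2 and 24 without treated replicate 1, and it was 17 when the withdrawal arrays were kept out of the fit (15.5% of all tested probe sets called). For the fits with an array left out, the share of all tested probe sets called is not given here. Whether calls fell alike over all probe sets therefore cannot be told.

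Mrps18b, 1 of the small-subunit proteins related to bacterial S18, was among the genes that were called higher on all 3 scales. Its probe set 1371809_at read 8.26, 7.97 and 8.06 on treated arrays, against 7.28, 7.13 and 7.48 on untreated arrays. All treated values lay above all untreated values, with a log2 difference of 0.80 (SE 0.14, adjusted p = 0.00366), and the call stayed with each array left out in turn. After cyclic loess the difference was 0.52 (adjusted p = 0.00991).

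Mrpl58 is a large-subunit protein that acts as a peptidyl-tRNA hydrolase and frees chains from stalled ribosomes. Its probe set 1374443_at read 7.85, 7.46 and 7.51 in treated islets, against 6.83, 6.84 and 7.04 in untreated islets. Again the groups did not overlap, and the difference was 0.71 (SE 0.14, adjusted p = 0.00519), or 0.51 after cyclic loess (adjusted p = 0.0102). Mrpl20, whose bacterial counterpart binds ribosomal RNA early in assembly, had the highest difference of the set as deposited. On probe set 1371720_at it read 8.93, 8.80 and 8.53 in treated islets, against 7.88, 7.73 and 8.17 in untreated islets. This is a difference of 0.83 (SE 0.16, adjusted p = 0.00542), and 0.44 after cyclic loess (adjusted p = 0.0304), with no overlap in the deposited values.

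Mrps28, of the small subunit, had the highest difference after cyclic loess, 0.62 (adjusted p = 0.0258). As deposited its probe set 1373121_at read 6.79, 6.25 and 6.25 on treated arrays, against 5.64, 5.64 and 6.08 on untreated arrays, a difference of 0.65 (SE 0.17, adjusted p = 0.0183). The groups were separate, but untreated replicate 3 came close to the treated values, and the call was lost in 2 of the 9 fits that leave out an array, with adjusted p up to 0.0835. Mrpl30, the counterpart of bacterial L30, read 7.48, 6.90 and 7.25 in treated islets, against 6.34, 6.55 and 6.59 in untreated islets, with differences of 0.72 (adjusted p = 0.00777) as deposited and 0.57 (adjusted p = 0.0184) after cyclic loess. The other 4 of the 9 genes were Mrpl28 at 0.75, Mrpl36 at 0.66, Mrps35 at 0.60 and Mrps9 at 0.55 as deposited. After cyclic loess these stood at 0.39, 0.34, 0.42 and 0.54. Mrps9, whose bacterial counterpart reaches the tRNA in the ribosome, rested most on single arrays, since its call as deposited was lost in 4 of the 9 fits with an array left out.

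**Figure D2:**
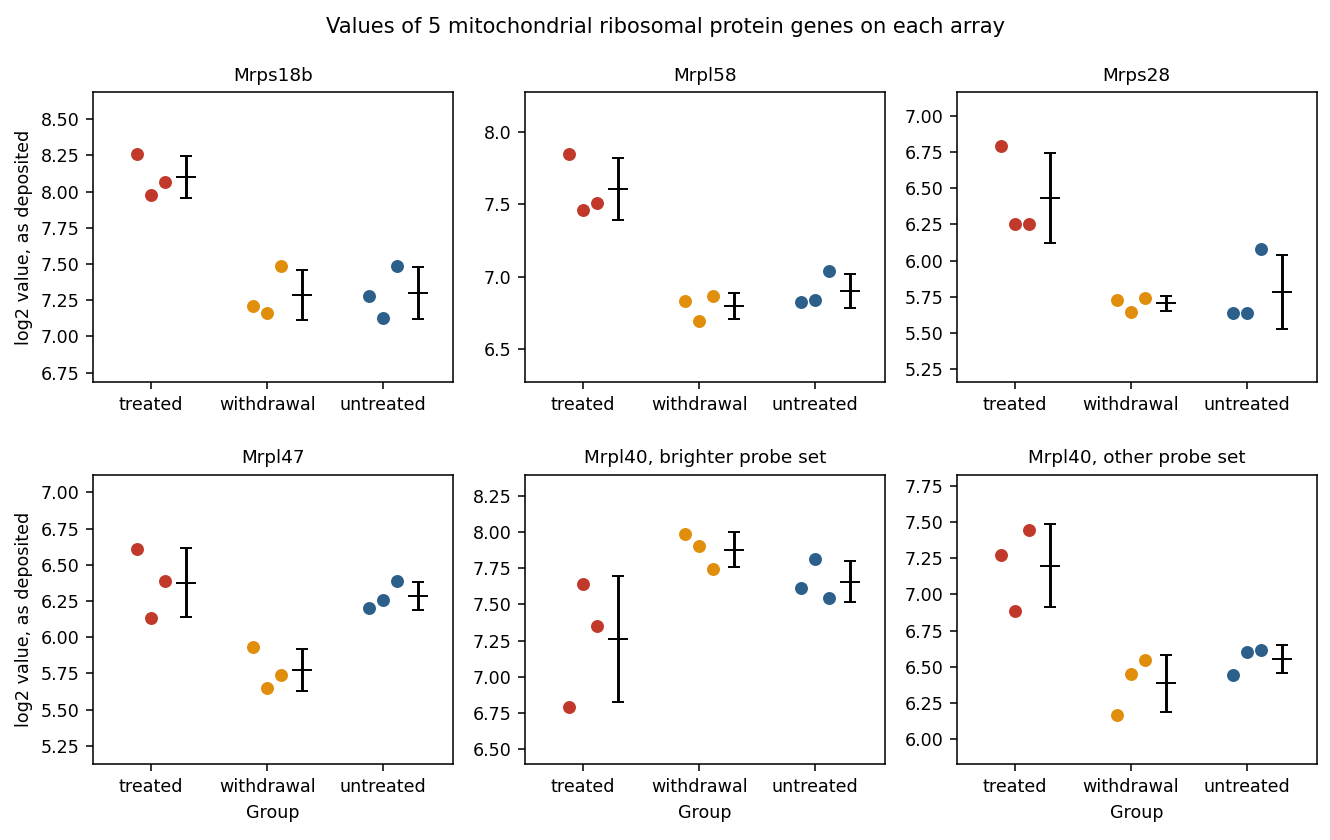
Log2 values as deposited of 5 genes on each array (points; 3 arrays per group), with the group mean and its standard deviation as a bar beside them. Mrps18b, Mrpl58 and Mrps28 are higher in treated islets, Mrpl47 is lower in withdrawal islets, and the 2 probe sets of Mrpl40 run in opposite directions.

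Promoters are shown for those of the 9 genes that RefSeq covers here, because these genes were higher together on every scale. That of Mrpl40 is shown as well, since its brighter probe set was not higher. Its other probe set was called higher in treated than in untreated islets on all 3 scales, so the gene is no contrast to the 9. The windows run from 100 bases before the start of the gene to 50 after it, 5′ to 3′ on the gene's strand, in build GRCr8. Capitals mark matches, on either strand, to the letters GCGCNTGCG of nuclear respiratory factor 1 (NRF1), CCGGAAG of ETS factors such as GABP, AAGATGGCG of YY1, or CACGTG of E-box factors; the letters TGACGTCA, CCAATNAG and TATAAA were searched as well and do not occur in these windows.
Mrps18b, chr20:2842906-2843055, plus strand: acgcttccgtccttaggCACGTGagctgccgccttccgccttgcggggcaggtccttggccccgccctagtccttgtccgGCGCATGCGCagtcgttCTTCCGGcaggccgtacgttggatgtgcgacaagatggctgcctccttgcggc
Mrpl58, chr10:101145242-101145391, plus strand: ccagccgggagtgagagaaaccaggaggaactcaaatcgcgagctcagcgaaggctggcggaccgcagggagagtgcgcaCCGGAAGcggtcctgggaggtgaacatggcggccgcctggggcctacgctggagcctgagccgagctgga
Mrpl20, chr5:171691098-171691247, plus strand: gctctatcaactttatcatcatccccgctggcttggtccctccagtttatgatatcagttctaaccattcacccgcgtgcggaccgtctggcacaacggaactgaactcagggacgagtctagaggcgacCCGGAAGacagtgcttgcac
Mrpl30, chr9:47621127-47621276, plus strand: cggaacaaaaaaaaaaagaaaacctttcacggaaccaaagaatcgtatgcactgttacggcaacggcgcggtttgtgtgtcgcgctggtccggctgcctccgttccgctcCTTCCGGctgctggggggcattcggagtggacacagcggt
Mrpl36, chr1:31795072-31795221, minus strand: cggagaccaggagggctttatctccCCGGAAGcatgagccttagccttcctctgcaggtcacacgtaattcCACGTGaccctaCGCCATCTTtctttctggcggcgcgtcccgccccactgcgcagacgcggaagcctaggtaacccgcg
Mrps9, chr9:52605578-52605727, plus strand: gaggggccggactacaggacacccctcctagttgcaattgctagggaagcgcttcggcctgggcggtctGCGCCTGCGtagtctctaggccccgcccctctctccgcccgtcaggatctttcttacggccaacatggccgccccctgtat
Mrpl28, chr10:15653079-15653228, plus strand: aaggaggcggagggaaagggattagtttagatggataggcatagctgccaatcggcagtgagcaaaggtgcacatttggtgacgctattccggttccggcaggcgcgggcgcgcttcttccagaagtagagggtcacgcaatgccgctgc
Mrpl40, chr11:95637651-95637800, plus strand: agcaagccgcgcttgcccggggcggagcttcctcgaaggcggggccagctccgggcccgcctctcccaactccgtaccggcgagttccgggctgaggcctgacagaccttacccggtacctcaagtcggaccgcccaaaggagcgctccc
Mrps18b held an E-box, an NRF1 match and an ETS match in this window, Mrpl36 an ETS, an E-box and a YY1 match, Mrpl20, Mrpl30 and Mrpl58 an ETS match, and Mrps9 an NRF1 match. Farther before the start, Mrpl30 held an NRF1 and an E-box match and Mrps9 a CCAATNAG match. No such letters occurred in the promoters of Mrpl28 and Mrpl40. Of the 73 genes, 59 had a promoter of 300 bases (250 before to 50 after the start) in the RefSeq table. Among these, 20 (33.9%) held CCGGAAG, against 9.22% of the promoters of 27457 genes, and 12 (20.3%) held GCGCNTGCG, against 6.34%. YY1 letters occurred in 13.6% against 1.93%, E-box letters in 10.2% against 6.65%, and TATAAA in 11.9% against 14.3%. The fully spelled NRF1 letters GCGCATGCG, which are contained in the pattern with a free base, occurred in 5 promoters, of Mrpl17, Mrpl22, Mrpl32, Mrpl44 and Mrps18b. The matches to TGACGTCA (CRE) and CCAATNAG (NFY) were 1.69% against 1.91% and 10.2% against 6.79%. Member promoters had a median GC content of 56%, against 52.3%, and such letters are more frequent in GC-rich sequence. Of the promoters of respiratory chain genes 27.8% held CCGGAAG and 25% held GCGCNTGCG, and of those of cytosolic ribosomal protein genes 23.3% and 14%. A match is a description of letters, not of binding.

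By subunit, the large-subunit proteins with a bacterial counterpart had the highest median difference between treated and untreated islets, 0.49 over 27 genes. In a comparison that called 20.9% of all tested probe sets higher, 15 of these 27 were called higher. Beside Mrpl20 and Mrpl28, these included Mrpl33 and Mrpl23, whose bacterial counterpart lies at the exit of the peptide tunnel. Mrpl33 read 10.08, 9.60 and 9.70 on treated arrays, against 8.98, 8.89 and 9.32 on untreated arrays, without overlap and with a difference of 0.73 (adjusted p = 0.00822). After cyclic loess it stood at 0.22 (adjusted p = 0.157), past no threshold. Mrpl23 was at 0.71 as deposited (adjusted p = 0.00473) and 0.28 after cyclic loess (adjusted p = 0.0645). Mrpl12, the stalk protein that binds translation factors, was at 0.65 (adjusted p = 0.0233) and 0.30 (adjusted p = 0.118) on these scales.

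The 21 large-subunit proteins specific to mitochondria had a median of 0.38, with 7 called higher (20.9% of all tested probe sets), and held both high and low members. Mrpl41 read 9.51, 8.91 and 8.84 on treated arrays, against 8.25, 8.20 and 8.56 on untreated arrays, a difference of 0.75 (adjusted p = 0.0118) with no overlap, and 0.31 after cyclic loess (adjusted p = 0.0921). Mrpl52 was at 0.69 (adjusted p = 0.0139), Mrpl51 at 0.64 (adjusted p = 0.0163) and Mrpl54 at 0.64 (adjusted p = 0.0183) as deposited. None of these probe sets was called after cyclic loess, but a dimmer one of Mrpl51, 1379874_at, was, at 0.455 (adjusted p = 0.0346). At the low end, Mrpl44, which carries a fold of the RNase III family, was at 0.11 (adjusted p = 0.586), Mrpl39 at 0.10 (adjusted p = 0.636) and Mrps30, which is placed in the large subunit despite its name, at 0.17 (adjusted p = 0.377).

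Of the 15 small-subunit proteins with a bacterial counterpart 9 were called higher, with a median of 0.48, and of the 10 specific to mitochondria 6 were, with a median of 0.46. Both counts stand beside 20.9% of all tested probe sets. Mrps12, the counterpart of the bacterial decoding protein S12, was at 0.51 (adjusted p = 0.0258), and Mrps16 was at 0.64 (adjusted p = 0.0118). Mrps22 was at 0.36 (adjusted p = 0.0417), and mutations of either MRPS16 or MRPS22 cause respiratory chain disease in humans. None of these 3 genes was called after quantile normalization or cyclic loess, and after cyclic loess they stood at 0.15, 0.24 and 0.26. The Mrps22 call as deposited was lost in 8 of the 9 fits with an array left out (adjusted p up to 0.148). Of the proteins related to bacterial S18, Mrps18b was called at 0.80, while Mrps18c was at 0.33 (adjusted p = 0.12) and Mrps18a, counted here with the large subunit despite its name, at 0.38 (adjusted p = 0.0795). Mrps27, a pentatricopeptide repeat protein, was at 0.10 (adjusted p = 0.541). Mrps6 had a wide spread, with 8.24, 7.33 and 7.09 on treated arrays, against 6.92, 6.83 and 7.44 on untreated arrays, and its difference of 0.49 did not pass (adjusted p = 0.183). After cyclic loess the medians of the 4 groups, in the order given, were 0.22, 0.16, 0.15 and 0.17. On that scale 4, 1, 2 and 2 of their genes were called higher. These are 14.8%, 4.76%, 13.3% and 20% of each group, beside 7.79% of all tested probe sets. Differences between these groups of genes were not tested.

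**Figure D3:**
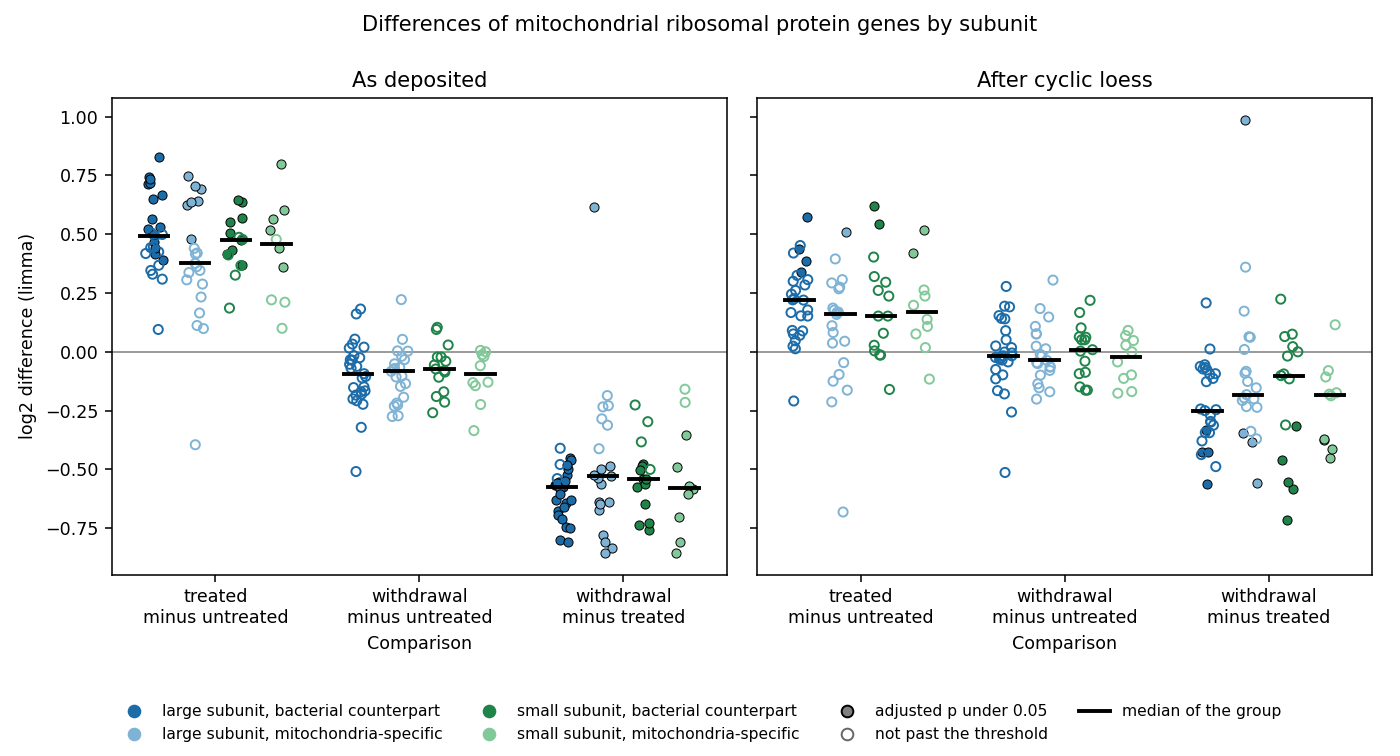
Log2 difference of each gene (points) in the 3 comparisons, by subunit and bacterial counterpart (colours), as deposited (left) and after cyclic loess normalization (right). Filled points passed an adjusted p under 0.05, and bars are medians. The points lie mostly above 0 for treated minus untreated, around 0 for withdrawal minus untreated and below 0 for withdrawal minus treated, nearer to 0 after cyclic loess.

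How far a gene stood from the rest depended on its brightness. As deposited, the bin of all probe sets at a median brightness of 7.74, near the members' median of 7.68, had a median treated minus untreated difference of 0.29, compared with 0.44 for the members. After cyclic loess the 25 dimmest genes had a median difference of 0.29, the 23 in the middle 0.15 and the 25 brightest 0.08. As deposited these stood at 0.42, 0.44 and 0.51. The bright genes Mrpl33, Mrps33 and Mrpl54 were called higher as deposited and stood at 0.22, 0.02 and 0.17 after cyclic loess, not past the threshold, while Mrpl20 and Mrpl28, also among the 25 brightest, and the dimmer Mrps28, Mrps9 and Mrpl30 were called on both scales.

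**Figure D4:**
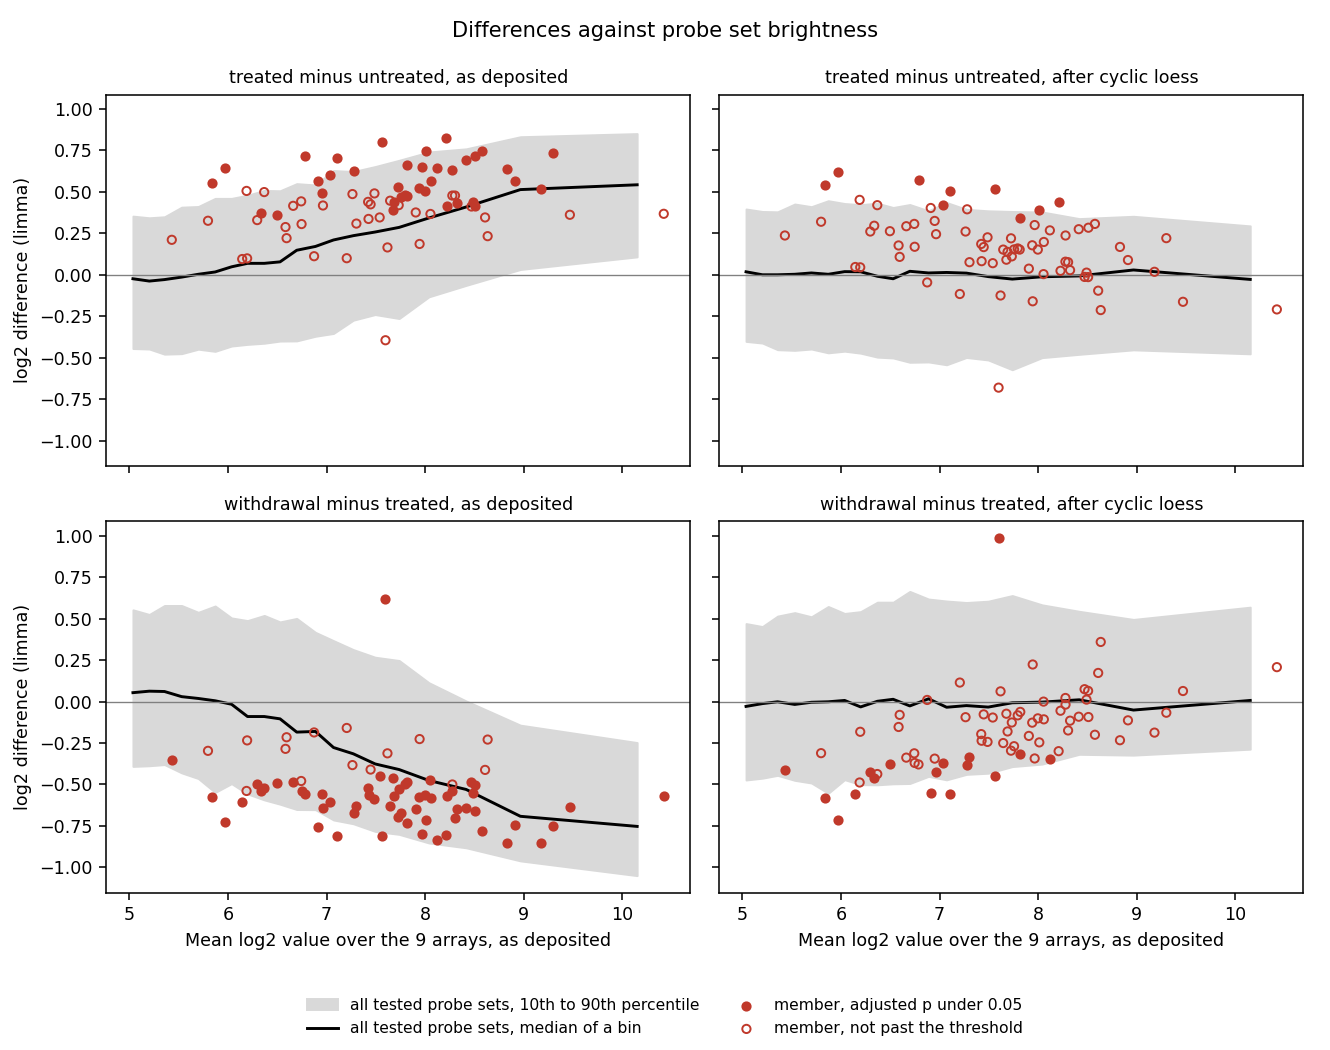
Log2 difference of the 73 genes (red points, filled where the adjusted p was under 0.05) against their mean log2 value over the 9 arrays, with the median (line) and the 10th to 90th percentile (grey) of all tested probe sets in 20 bins of brightness. As deposited the line itself climbs for treated minus untreated and sinks for withdrawal minus treated with brightness. After cyclic loess it is flat, and most members lie above it in the upper panel and below it in the lower one.

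Between withdrawal and untreated islets, the genes were not called apart. With limma none of the 73 genes passed an adjusted p under 0.05 as deposited, after quantile normalization or after cyclic loess, beside 0.159%, 0.42% and 0.271% of all tested probe sets called in either direction on these scales. At an unadjusted p under 0.05 there were 2 genes as deposited and 3 on each of the other scales. The share of all tested probe sets at that unadjusted p is not given here, so nothing is read from these counts. The median difference was -0.08 as deposited, against -0.02 over all tested probe sets, and -0.02 after cyclic loess. All withdrawal values lay above the untreated ones for 2 genes (7.65% of all probe sets) and below them for 10 (10.3%), and the values of the others overlapped. Weighting the arrays by their estimated quality, 6 genes were called lower, Mrpl4, Mrpl47, Mrpl53, Mrps11, Mrps18a and Mrps33, in a fit that called 15.8% of all tested probe sets.

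Mrpl47, the counterpart of bacterial L29, had the largest such difference of the set. On probe set 1382144_at it read 5.93, 5.65 and 5.74 in withdrawal islets, against 6.20, 6.26 and 6.39 in untreated islets. The groups did not overlap, and the difference was -0.51 (SE 0.14), but its adjusted p was 0.354. It was called, as the only gene of the set, with treated replicate 1 left out or with only these 6 arrays in the fit (2.39% of all tested probe sets called). Treated islets, at 6.61, 6.13 and 6.39, overlapped with the untreated ones, with a difference of 0.09 (adjusted p = 0.639). Next to withdrawal islets the treated ones were separate, and the withdrawal minus treated difference was -0.60 (SE 0.14, adjusted p = 0.00663), or -0.56 after cyclic loess (adjusted p = 0.0138).

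In withdrawal islets 57 of the 73 genes were called lower than in treated islets as deposited, 38 of the large and 19 of the small subunit, and 16 were after cyclic loess. This comparison shares the treated arrays with the first one, so the 2 are not independent of each other. The 57 lower calls stand beside 32.6% of all tested probe sets, and Mrpl40 was called higher, beside 11.2%. The median difference was -0.56, against -0.19 over all, and for 62 genes all withdrawal values lay below all treated values (39% of all probe sets). After quantile normalization 20 were called lower (14.6% of all) and after cyclic loess 16 (12.7% of all), while Mrpl40 was called higher on both scales (14.6% and 15.8% of all), with medians of -0.22 and -0.19. The count after cyclic loess was 3 without withdrawal replicate 2 (Mrpl14, Mrpl58 and Mrps5), 7 without withdrawal replicate 1 and 9 lower without withdrawal replicate 3. As deposited it was 36 lower without withdrawal replicate 2. The share of all tested probe sets called in these fits is not given here. Over the 3 groups together, limma's F test called 50 of the 73 genes as deposited (37% of all tested probe sets) and 14 after cyclic loess (23.4% of all).

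Mrpl58, Mrps18b and Mrps28, already described, fell on all 3 scales. Mrpl58 read 6.83, 6.70 and 6.87 in withdrawal islets, against 7.85, 7.46 and 7.51 in treated islets, with a difference of -0.81 (SE 0.14, adjusted p = 0.00149) and -0.56 after cyclic loess (adjusted p = 0.00492). Mrps18b read 7.21, 7.16 and 7.49 in withdrawal islets, against 8.26, 7.97 and 8.06 in treated islets, a difference of -0.81 (SE 0.14, adjusted p = 0.00175) and -0.45 (adjusted p = 0.0123). Mrps28 fell by 0.73 as deposited (adjusted p = 0.00616) and by 0.71 after cyclic loess (adjusted p = 0.0107). For these 3 genes withdrawal values were all under the treated ones and overlapped with the untreated ones.

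Other genes were called between withdrawal and treated islets on all 3 scales but not on all 3 between treated and untreated islets. Mrps5, the counterpart of bacterial S5 at the entry of the messenger RNA, read 5.99, 6.09 and 6.22 in withdrawal islets, against 6.64, 6.61 and 6.67 in treated islets, a difference of -0.54 (SE 0.12, adjusted p = 0.00401) and -0.46 after cyclic loess (adjusted p = 0.0088). Mrpl14, whose bacterial counterpart lies at the interface of the subunits, read 6.04, 6.09 and 6.09 in withdrawal islets, against 6.65, 6.52 and 6.55 in treated islets, with -0.50 (adjusted p = 0.00594) and -0.43 (adjusted p = 0.011). Both were separate between withdrawal and treated islets. Mrps15, which binds ribosomal RNA in bacteria, was at -0.76 (adjusted p = 0.00536) and -0.55 (adjusted p = 0.016), Mrps11 at -0.73 (adjusted p = 0.00306) and -0.32 (adjusted p = 0.0423), and Mrps31 at -0.36 (adjusted p = 0.0356) and -0.41 (adjusted p = 0.0212). The Mrps31 call as deposited was lost in 5 of the 9 fits with an array left out. The untreated group means of these genes lay between the other 2, and whether the 2 differences of a gene are unequal was not tested.

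The 3 largest falls as deposited were those of Mrps33, Mrpl54 and Mrpl51, followed by Mrps18b and Mrpl58. Mrps33 read 8.76, 8.69 and 8.90 in withdrawal islets, against 10.05, 9.42 and 9.44 in treated islets, a difference of -0.86 (SE 0.18, adjusted p = 0.00332), but after cyclic loess it was -0.19 (adjusted p = 0.207). Mrpl54 was at -0.85 and Mrpl51 at -0.84 as deposited (adjusted p = 0.00276 for each), and after cyclic loess at -0.23 (adjusted p = 0.16) and -0.35 (adjusted p = 0.0314). Mrpl27, at -0.74 as deposited (adjusted p = 0.00196), stood at -0.11 after cyclic loess (adjusted p = 0.433). By subunit, 24 of 27, 14 of 21, 11 of 15 and 8 of 10 genes were called lower as deposited (32.6% of all tested probe sets), in the order large subunit with and without a bacterial counterpart and small subunit with and without one. After cyclic loess these counts were 4 of 27, 3 of 21, 5 of 15 and 4 of 10 (12.7% of all).

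Mrpl40, a large-subunit protein specific to mitochondria, was the exception among the probe sets that stood for the genes, and its probe sets disagreed. The brighter one, 1374931_at, read 7.98, 7.90 and 7.75 in withdrawal islets, against 6.79, 7.64 and 7.35 in treated islets, without overlap and with a difference of 0.62 (SE 0.19, adjusted p = 0.0209). In untreated islets it read 7.61, 7.82 and 7.54, and the treated minus untreated difference of -0.39 did not pass (adjusted p = 0.133). The other, 1388517_at, read 6.17, 6.45 and 6.54 in withdrawal, 7.27, 6.88 and 7.44 in treated and 6.44, 6.60 and 6.62 in untreated islets. It was called the other way, with a withdrawal minus treated difference of -0.81 (adjusted p = 0.00272) and a treated minus untreated difference of 0.65 (adjusted p = 0.0139), like most genes of the set. Which transcript each probe set reads was not tested, so no direction is given for the gene. Among the 14 genes with more than 1 tested probe set, probe sets also differed in sign between treated and untreated islets for Mrpl12, Mrpl50, Mrps2 and Mrps27, but only for Mrpl40 were both called in the withdrawal minus treated comparison in opposite directions. After cyclic loess, a dimmer probe set of Mrpl37, Mrpl40, Mrpl49, Mrpl51 and Mrpl57 was called higher in treated than in untreated islets (adjusted p from 0.0284 to 0.0466). The brightest probe sets of these genes were not, so the count of 9 after cyclic loess rests on the choice of the brightest probe set. Against the set, a dimmer probe set of Mrps2, 1382782_at, was called higher in withdrawal than in treated islets on all 3 scales. It stood at 0.44 as deposited (adjusted p = 0.028) and 0.72 after cyclic loess (adjusted p = 0.012). The brightest probe set of Mrps2 was at -0.23 as deposited (adjusted p = 0.134).

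Genes around the mitochondrial ribosome were described from lists chosen for their function. The 5 other mitoribosomal proteins, which carry different names, were all higher in treated than in untreated islets in their group means. As deposited 3 were called, beside 20.9% of all tested probe sets called higher, and after cyclic loess 1 was, beside 7.79%. Gadd45gip1, which sits at the tunnel exit of the large subunit, read 8.21, 7.68 and 7.52 on treated arrays, against 7.03, 6.72 and 7.04 on untreated arrays, with no overlap. Its difference was 0.88 (SE 0.18, adjusted p = 0.00619) and 0.66 after cyclic loess (adjusted p = 0.00816), and withdrawal minus treated it was -0.90 (adjusted p = 0.00265) and -0.62 (adjusted p = 0.00716). Aurkaip1 was at 0.68 (adjusted p = 0.0185) and Ptcd3 at 0.55 (adjusted p = 0.0244), and neither was called after cyclic loess. Dap3, a GTP-binding protein of the small subunit, was at 0.36 (adjusted p = 0.123), and Chchd1 at 0.44 (adjusted p = 0.219).

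Among the 11 translation factors 5 were called higher in treated than in untreated islets and none lower, and 6 were lower in withdrawal than in treated islets; after cyclic loess these counts were 3 and 4. Of all tested probe sets 20.9% and 32.6% were called in these directions as deposited, and 7.79% and 12.7% after cyclic loess. Mtres1, which rescues stalled mitochondrial gene expression, read 7.17, 6.74 and 6.73 on treated arrays, against 6.17, 6.46 and 6.04 on untreated arrays, a difference of 0.66 (adjusted p = 0.0125) and 0.58 after cyclic loess (adjusted p = 0.0222). The groups were separate. The elongation factors Tufm and Tsfm were at 0.58 (adjusted p = 0.0363) and 0.64 (adjusted p = 0.0121) as deposited and were not called after cyclic loess, and the initiation factor Mtif2 was at 0.50 (adjusted p = 0.0239) and 0.39 (adjusted p = 0.0357). The elongation factor Gfm1, at 0.24, did not pass (adjusted p = 0.396). The Tufm call between treated and untreated islets as deposited was lost in 6 of the 9 fits with an array left out (adjusted p up to 0.157).

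The 26 tested genes of ribosome assembly and ribosomal RNA modification had a median of 0.24 between treated and untreated islets. Of these, 5 were called higher in treated islets, a share of 19.2% that is near the 20.9% of all tested probe sets. After cyclic loess 4 were called higher, beside 7.79% of all tested probe sets, and 1 lower, for which the share of all is not given here. Mrm1, a methyltransferase of the large ribosomal RNA, was at 0.72 (adjusted p = 0.00862) and 0.75 after cyclic loess (adjusted p = 0.0102), and the GTPase Mtg1 at 0.56 (adjusted p = 0.00791) and 0.33 (adjusted p = 0.0401). Withdrawal minus treated, 12 were called lower (46.2%, beside 32.6% of all), such as the helicase Dhx30 at -0.79 (adjusted p = 0.00258) and -0.45 after cyclic loess (adjusted p = 0.0187), and 2 were higher. These 2 of the 26 genes stand beside 11.2% of all tested probe sets called higher in this comparison, so they are not read as a group. They were Nsun4 at 0.50 (adjusted p = 0.0336) and Mettl17 at 0.34 (adjusted p = 0.0333), named here after their values were seen. With an array left out, the Nsun4 call was lost in 3 of 9 fits (adjusted p up to 0.128) and the Mettl17 call in 5 (up to 0.117). Of 13 mitochondrial aminoacyl-tRNA synthetase genes tested, 2 (15.4%, under the 20.9% of all tested probe sets) were called higher in treated islets and 7 lower in withdrawal than in treated islets (53.8%, beside 32.6% of all). After cyclic loess these counts were 2 and 4, beside 7.79% and 12.7% of all tested probe sets. The 2 as deposited were Iars2 at 0.60 (adjusted p = 0.0125) and Rars2 at 0.84 (adjusted p = 0.0149). Rars2 had 6.89, 7.87 and 7.79 on treated arrays, against 6.71, 6.73 and 6.60 on untreated arrays, and was the reverse of most genes here in that treated replicate 1 was the lowest treated array.

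Of the 11 tested genes that maintain and transcribe mitochondrial DNA, 4 were called higher in treated islets and 6 lower in withdrawal than in treated islets, and after cyclic loess 3 and 6, beside 20.9% and 32.6% of all tested probe sets as deposited and 7.79% and 12.7% after cyclic loess. Tfam, which packs mitochondrial DNA and starts its transcription, read 7.56, 7.60 and 7.79 in withdrawal islets, against 8.96, 8.48 and 8.51 in treated islets. This was a difference of -1.0 (SE 0.16, adjusted p = 0.00128) without overlap, and -0.52 after cyclic loess (adjusted p = 0.00579). Against untreated islets, at 8.15, 7.74 and 8.08, treated islets were higher by 0.66 (adjusted p = 0.0132), or 0.29 after cyclic loess (adjusted p = 0.0678). The DNA-binding protein Ssbp1 was at 0.81 (adjusted p = 0.00682) and 0.54 (adjusted p = 0.0126) on these scales, Tfb2m at 0.49 (adjusted p = 0.0337) and 0.42 (adjusted p = 0.0456), and the RNA polymerase Polrmt at 0.19 (adjusted p = 0.338). The Tfb2m call as deposited was lost in 5 of the 9 fits with an array left out (adjusted p up to 0.137).

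Of 10 nuclear regulators of mitochondrial genes, 2 were called higher and 2 lower in treated than in untreated islets (20.9% and 7.24% of all tested probe sets). After cyclic loess 1 was called higher, beside 7.79% of all tested probe sets, and 3 were called lower. The share of all tested probe sets called lower on that scale is not given here, so the 3 have no background beside them. Ppargc1a, the coactivator PGC-1 alpha, read 6.34, 6.12 and 5.95 on treated arrays, against 6.99, 7.26 and 6.78 on untreated arrays. It was lower on every treated array, with a difference of -0.87 (SE 0.16, adjusted p = 0.0042) and -1.01 after cyclic loess (adjusted p = 0.00338). In withdrawal islets it read 7.24, 7.16 and 6.89, higher than in treated islets by 0.96 (adjusted p = 0.00144). Its relative Ppargc1b read 6.52, 6.85 and 7.18 on treated arrays, against 7.39, 7.61 and 7.42 on untreated arrays, again without overlap and with a difference of -0.62 (adjusted p = 0.0157), and withdrawal minus treated it was 0.87 (adjusted p = 0.00201). The third member of the family, Pprc1, moved the other way, at 0.46 (adjusted p = 0.0316) and -0.54 (adjusted p = 0.0102). Its treated minus untreated call was lost in 5 of the 9 fits with an array left out (adjusted p up to 0.112). Myc, a growth regulator, was at 0.71 between treated and untreated islets (adjusted p = 0.0153), with 0.40 after cyclic loess (adjusted p = 0.0534). Of the factors whose letters were searched in the promoters, 3 did not pass between treated and untreated islets as deposited, with Nrf1 at 0.11 (adjusted p = 0.577), Gabpa at 0.25 (adjusted p = 0.553) and Yy1 at 0.54 (adjusted p = 0.0694), and neither did the nuclear receptor Esrra at -0.02 (adjusted p = 0.924). Between withdrawal and treated islets, Yy1 was called at -0.78 (adjusted p = 0.0109), but not after cyclic loess, at -0.33 (adjusted p = 0.11).

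**Figure D5:**
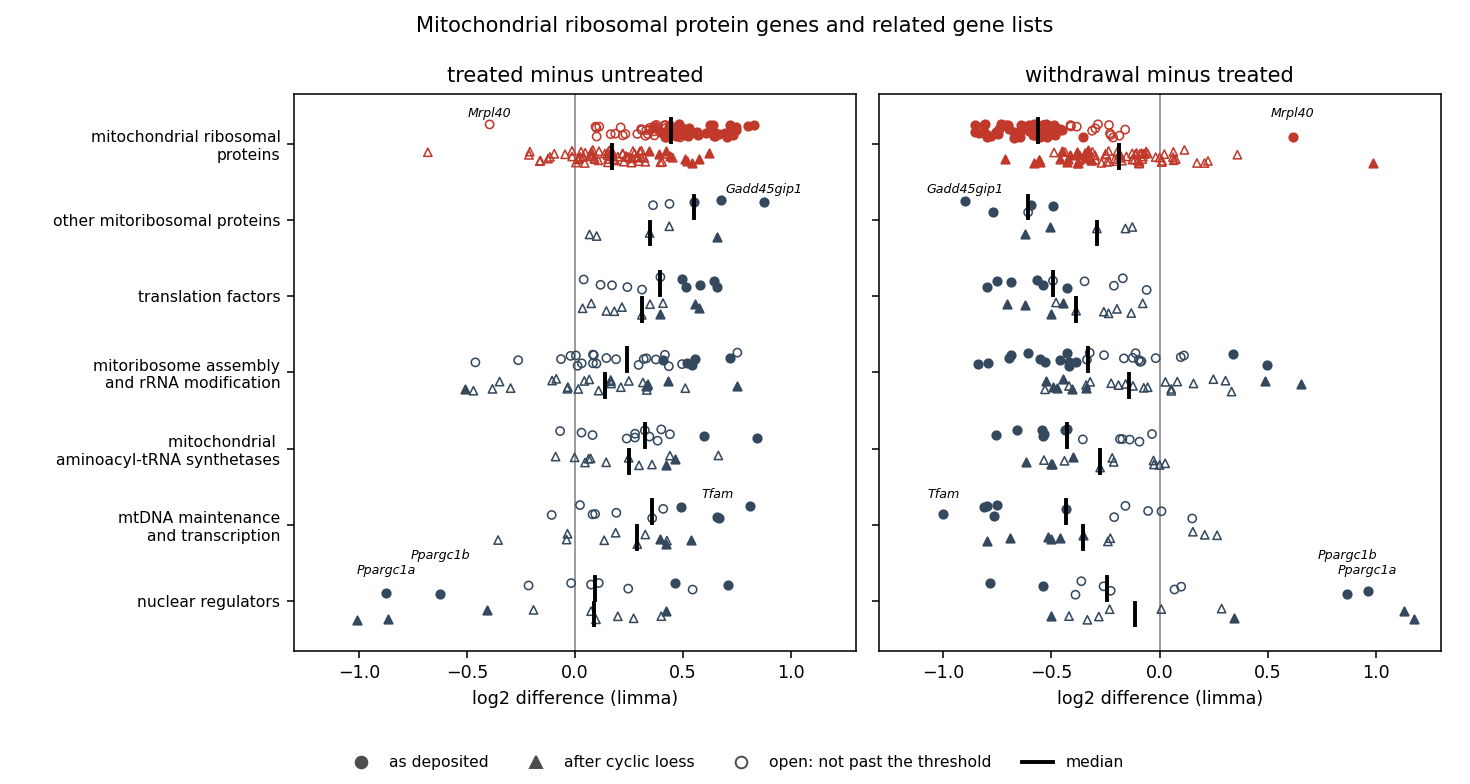
Log2 difference of each gene in treated minus untreated (left) and withdrawal minus treated (right), for the 73 genes (red) and for 6 lists of related genes, as deposited (circles) and after cyclic loess (triangles). Filled points passed an adjusted p under 0.05, and bars are medians. The medians lie above 0 on the left and below 0 on the right for each list on both scales, while Ppargc1a and Ppargc1b lie on the opposite side.

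Set beside other large gene families, the median of the mitochondrial ribosomal protein genes stayed above 0 between treated and untreated islets after quantile normalization and after cyclic loess. The 43 tested cytosolic ribosomal protein genes had a median treated minus untreated difference of 0.52 as deposited, 0.04 after quantile normalization and -0.09 after cyclic loess, so the sign turned after cyclic loess and not after quantile normalization. The 77 tested genes for respiratory chain and ATP synthase subunits had 0.46 as deposited, -0.07 after quantile normalization and -0.06 after cyclic loess, with the sign turned on both other scales. The median of the mitochondrial ribosomal protein genes was 0.44, 0.18 and 0.17 on these scales. Withdrawal minus treated, the medians as deposited, after quantile normalization and after cyclic loess were -0.56, -0.22 and -0.19 for the mitochondrial ribosomal protein genes and -0.79, -0.08 and -0.08 for the respiratory chain genes. For the cytosolic ones they were -0.59 and, with the sign turned on both other scales, 0.04 and 0.27. Whether the families differ from each other was not tested. The brightness of the compared families is not given here. Within the set, the values after cyclic loess between treated and untreated islets differed with brightness, from 0.29 for the dimmest to 0.08 for the brightest genes. The turned signs are therefore not read as a trait that sets the families apart.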

How the data were processed

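Islet RNA of 9 samples was measured on 1-colour Affymetrix arrays. The values are log2 expression values per probe set, as the authors deposited them in the series value table; the submitters' processing notes name RMA and MAS5, with versions and the role of each not given in the sources used here. Probe sets were named through GEO's platform annotation; those with several gene symbols were given no gene. The scanner files were not used here.

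Groups were taken from the labels. The 10348 dimmest probe sets by mean log2 over the 9 arrays (under 4.952) and the control probe sets were left out, and 20694 were tested. A model with 1 mean per group was fitted to all of them with limma 3.58.1 (lmFit, eBayes) in R 4.3.3, and p-values were adjusted by Benjamini and Hochberg over all tested probe sets. Every adjusted p is from this fit or, where said, from the same fit after quantile or cyclic loess normalization; a call is an adjusted p under 0.05. Tables, promoter searches and figures were made with Python 3.11.15 and matplotlib 3.10.9, and the fit was tested on simulated data. The simulated arrays had no difference in spread between them, so that test cannot tell how such a difference acts on the calls. Nothing says whether the 3 samples of a group came from separate animals or pools beyond the label of biological replicate, and their number limits the precision.

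The genes, the lists of related genes and the marker lists were chosen with earlier results of these data known. Genes named with values were those with the largest differences among called genes in each direction, those called with the smallest p after quantile normalization, those farthest against the direction of the set, a set fixed for its function, and up to 3 genes of the smallest p in each related list; exceptions are said in the text. Alternatives were quantile, cyclic loess and median-centred scales, other filters, a trended robust variance, array weights, only the arrays of the groups compared, the mean over the probe sets of a gene, a replicate block, and leaving out each array. The fits that combine cyclic loess with a replicate block or with an array left out were added after seeing the data.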

Additional observations from a re-analysis of the deposited data

How the results depend on the processing

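As deposited, 37 genes were called between treated and untreated islets, 0 between withdrawal and untreated, 58 between withdrawal and treated, and 50 by the F test, and the medians of the first and the third comparison were 0.44 and -0.56. Quantile normalization gave 9 genes, 21 genes and, for the F test, 17, with medians of 0.18 and -0.22. Cyclic loess gave 9, 17 and 14, with medians of 0.17 and -0.19. With only the 6 arrays compared, 17 genes were called between treated and untreated islets and 1, Mrpl47, between withdrawal and untreated islets, and array weights called 6 between withdrawal and untreated islets. Leaving out 1 array at a time, the counts as deposited ranged from 9 to 42, 0 to 1, 36 to 62 and, for the F test, 27 to 52, with 31 without withdrawal replicate 1, and the medians from 0.31 to 0.53 and -0.64 to -0.44. After cyclic loess, the same fits, chosen after seeing the data, gave 2 to 11, 0 to 1, 3 to 20 and 2 to 15 genes, with medians of 0.13 to 0.24 and -0.24 to -0.14. The cause of these moves was not tested, but each such fit has fewer arrays. The share of all tested probe sets called with an array left out is not given here, so these counts have no background beside them.

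The titles number the samples of each group alike, but correlations between same-numbered samples ran from -0.28 to 0.50, so the numbers were not taken as pairs. With a replicate block 40, 0, 58 and 54 genes were called as deposited, and cyclic loess with replicate block gave 10, 0, 18 and 11, with medians of 0.17 and -0.19. For the replicate block fits, too, the share of all tested probe sets called is not given here.

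Of the genes named, Mrps33 turned its sign between treated and untreated islets after quantile normalization (-0.012) and after cyclic loess without treated replicate 1 (-0.058) or untreated replicate 1 (-0.049), with 0.629 as the highest value of these fits (as deposited, without treated replicate 2). Between withdrawal and treated islets Mrps16 ranged from -0.664 as deposited without treated replicate 2 to 0.037 after cyclic loess without treated replicate 3. With the mean over the probe sets of a gene, Mrps22 was at -0.059 between treated and untreated islets, and Mrpl40 and Mettl17 were at -0.098 and -0.069 between withdrawal and treated islets. With 3 arrays per group and unequal spread between arrays, a difference of a bright gene as deposited includes the shift that bright probe sets share, and its value after cyclic loess stands beside it where given.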
